A study of Mus musculus with 3 samples.

Results

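Basophils were sought in 3 single-cell RNA-seq libraries of mouse liver, where they were chosen by their own transcripts. A barcode was kept as a basophil when mitochondrial genes held at most 30% of its UMIs (unique molecular identifiers, which count RNA molecules) and when Mcpt8, Prss34, Cpa3, Fcer1a, Ms4a2, Cd200r3 and Gata2 together gave at least 5 UMIs from at least 3 of these 7 genes. This rule found 82 basophils among 36951 barcodes within the mitochondrial limit, of 36990 barcodes in all. Of these, 73 came from control livers, 8 from livers after a high-fat diet and 1 from livers after CCl4.

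Basophils are rare blood granulocytes that carry the high-affinity receptor for IgE and the interleukin-3 receptor, and that answer allergens and parasites by releasing histamine, lipid mediators and type 2 cytokines. They arise in the bone marrow from progenitors that need the transcription factor GATA2, and they share part of their granule content with mast cells, which complete their development in tissues. In the liver they are a minor population of the blood and sinusoids.

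All mice were wild-type males, 8 weeks old at the start, of the strain labelled C57BL/6 and named C57BL/6J in the study's methods. Control (CON) mice were untreated, HFD mice ate a diet with 60% of its calories as fat for 4 months, and CCL4 mice ate chow for 3 months and then were injected into the peritoneum with 0.1 mL of 10% CCl4, which poisons hepatocytes, 2 times in each of 4 weeks. Livers were perfused and digested with collagenase, nonparenchymal cells were purified over Percoll, hepatocytes and nonparenchymal cells were mixed 1:1 before loading, and each condition gave 1 library pooled from 2 mice. No spread between mice could therefore be measured and no test between conditions was made. Intervals below are exact 95% intervals that cover counting error only.

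Depth differed between the libraries. In control, 49613255 UMIs fell on 11245 barcodes (median 2939), in high-fat diet 34985786 on 12984 (median 2336) and in CCl4 34061186 on 12761 (median 2173). Control basophils had a median of 3289 UMIs (range 1662 to 23198; 319663 in all), and the 8 basophils of the high-fat diet library had a median of 2120.5 (1850 to 2537; 17628 in all). The single basophil of the CCl4 library had 2067 UMIs, of which 15.3% were mitochondrial. Levels are given as CPM, the UMIs of a gene scaled to counts per 1e6 UMIs of the cell group; the libraries count 3' ends, so a CPM is a count of molecules and needs no correction for length. One UMI equalled 3.13 CPM in the control basophils, 56.7 CPM in those of the high-fat diet and 484 CPM in that of CCl4. Between libraries, 36 barcode sequences were shared by control and high-fat diet, 49 by control and CCl4 and 52 by high-fat diet and CCl4, and 1 of those shared by control and CCl4 was a basophil barcode.

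The 7 genes that chose the cells encode a basophil serine protease (Mcpt8), a second one (Prss34), a granule carboxypeptidase shared with mast cells (Cpa3), the alpha and beta chains of the IgE receptor (Fcer1a, Ms4a2), an activating paired receptor (Cd200r3) and a transcription factor (Gata2). Their values are a description of the choice and not a finding. Among the 73 control basophils, Gata2 was detected in 67, Cpa3 and Ms4a2 in 56 each, Cd200r3 in 55, Mcpt8 in 45, Fcer1a in 30 and Prss34 in 26. No single gene was present in every cell, and 26 control basophils held neither Mcpt8 nor Prss34. The 7 genes together gave a median of 13 UMIs per control basophil (5 to 356), and their summed level was 13051 CPM in the control basophils against 4.07 CPM in T cells of the same library. The label was also checked against a marker outside the rule: Il4 was present in 35 of 73 control basophils at 400 CPM (334 to 476), against 9.24 CPM in T cells.

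Close to the threshold, 5 control barcodes had exactly 5 UMIs from 3 or more genes, and all 5 carried transcripts of Hdc, Ccl3, Ccl4 and Il6. Just outside it, 1 control barcode had 4 UMIs from 3 or more genes and 10 had 5 or more UMIs from only 2 genes. Each of these 11 carried Hdc and Ccl4. Of the 10, 9 carried Ccl3, 9 carried Il6 and 5 carried Cyp11a1. The barcode with 4 UMIs carried Ccl3 and Il6 but not Cyp11a1, which was in all 5 at the threshold. The 10 control barcodes whose UMIs came from 1 gene were less alike, and 6 of them carried Hdc. In the high-fat diet library 2 barcodes lay outside with 4 UMIs and 1 with 2 genes, and in the CCl4 library 1 with 2 genes. A further 2 barcodes of the high-fat diet library and 1 of the CCl4 library had 5 or more UMIs from 1 gene, and all 3 carried Hdc, Ccl3 and Ccl4; the CCl4 barcode with 2 genes had no Hdc or Ccl4 UMI.

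Promoters of 5 of the rule genes are shown because the transcription factor Gata2 was itself among them and GATA factors bind a core of the letters GATA. Each runs from 250 bases before to 50 bases after the start of the gene (RefSeq, GRCm38.p6), 5′ to 3′ on the strand of the gene, with matches to AGATAA or TGATAA on either strand in capitals.
Mcpt8 (chr14:56085148-56085447, minus strand): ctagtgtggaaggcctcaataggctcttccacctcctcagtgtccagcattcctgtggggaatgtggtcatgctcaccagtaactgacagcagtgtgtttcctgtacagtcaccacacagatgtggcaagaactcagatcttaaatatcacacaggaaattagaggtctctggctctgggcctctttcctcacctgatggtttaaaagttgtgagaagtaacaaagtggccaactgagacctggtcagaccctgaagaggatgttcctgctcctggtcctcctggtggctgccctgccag
Prss34 (chr17:25298144-25298443, plus strand): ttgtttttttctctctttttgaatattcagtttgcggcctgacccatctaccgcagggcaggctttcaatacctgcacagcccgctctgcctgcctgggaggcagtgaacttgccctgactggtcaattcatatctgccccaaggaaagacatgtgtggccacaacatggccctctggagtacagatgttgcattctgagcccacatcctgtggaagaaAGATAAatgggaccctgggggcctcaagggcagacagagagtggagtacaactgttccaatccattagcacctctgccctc
Cpa3 (chr3:20242132-20242431, minus strand): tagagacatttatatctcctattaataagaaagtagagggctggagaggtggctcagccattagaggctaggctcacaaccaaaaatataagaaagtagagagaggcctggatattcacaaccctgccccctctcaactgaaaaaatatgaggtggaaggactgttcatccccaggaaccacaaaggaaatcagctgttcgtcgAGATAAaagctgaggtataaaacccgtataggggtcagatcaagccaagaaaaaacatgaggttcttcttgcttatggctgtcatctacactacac
Fcer1a (chr1:173227180-173227479, minus strand): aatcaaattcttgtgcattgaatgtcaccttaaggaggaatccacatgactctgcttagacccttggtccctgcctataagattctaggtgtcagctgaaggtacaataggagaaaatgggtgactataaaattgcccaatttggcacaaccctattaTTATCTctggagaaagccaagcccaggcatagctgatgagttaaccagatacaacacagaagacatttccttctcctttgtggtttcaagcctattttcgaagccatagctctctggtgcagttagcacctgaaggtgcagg
Ms4a2 (chr19:11623670-11623969, minus strand): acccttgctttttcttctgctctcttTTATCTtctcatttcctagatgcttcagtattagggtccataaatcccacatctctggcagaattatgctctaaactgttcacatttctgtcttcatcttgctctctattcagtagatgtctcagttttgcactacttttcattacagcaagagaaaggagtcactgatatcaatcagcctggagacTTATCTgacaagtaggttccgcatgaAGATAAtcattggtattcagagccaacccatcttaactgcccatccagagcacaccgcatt
Ms4a2 had 3 matches, Prss34, Cpa3 and Fcer1a had 1 each, and these letters were not in the Mcpt8 window. All 7 rule genes had an entry, 8 promoters in all since Gata2 has 2, and 5 of the 8 held a match (62.5%), against 18.6% of all 32851 promoters in the table. Of the 15 genes outside the rule with the highest ratio over all other control barcodes (below), 13 had an entry, and 3 of their 14 promoters held a match (21.4%). The letters TTGCNNCAA, bound by C/EBP factors, and TGANTCA, bound by AP-1, were in none of the 8 promoters of the rule genes, and in 2.08% and 7.81% of all promoters. A match is a stretch of letters and was not measured as a binding site.

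The rule genes lie apart from each other in the genome (GENCODE M21, GRCm38), and all are annotated as protein-coding. Mcpt8 (chr14:56082166-56085273, minus strand) lies in one stretch of chromosome 14 with Ctsg (chr14:56099881-56102574), Gzmb (chr14:56258838-56262260) and the mast cell chymase gene Cma1 (chr14:55941451-55944675), all on the minus strand and all genes for granule serine proteases. Mcpt8 and Cpa3 each contain an annotated miRNA gene on their own strand; Prss34, Fcer1a, Ms4a2, Cd200r3 and Gata2 overlap no other annotated gene.

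The share of basophils among barcodes differed between libraries by far more than counting error. They made up 0.651% of control barcodes (73 of 11207; Clopper-Pearson interval 0.511% to 0.818%), 0.0616% of high-fat diet barcodes (8 of 12983; 0.0266% to 0.121%) and 0.00784% of CCl4 barcodes (1 of 12761; 0.000198% to 0.0437%). The intervals of the control and of both other libraries did not overlap, while those of high-fat diet and CCl4 did. These are shares of a suspension in which hepatocytes and nonparenchymal cells were mixed at a set ratio, so the counts were also set against other leukocytes.

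T cells were barcodes with at least 3 UMIs from at least 2 of Cd3d, Cd3e, Cd3g, Trac, Trbc1 and Trbc2, and neutrophils were barcodes with at least 10 UMIs from at least 4 of S100a8, S100a9, Retnlg, Mmp9, Mmp8, Cxcr2, Csf3r and Ltf. For each 100 T cells there were 3.61 basophils in control (2.82 to 4.57), 0.554 after a high-fat diet (0.239 to 1.10) and 0.0846 after CCl4 (0.00214 to 0.472). Relative to T cells the order of the 3 libraries was the same as for the shares of barcodes. For each 100 neutrophils there were 11.4 (8.86 to 14.6), 2.46 (1.05 to 4.91) and 1.85 (0.0460 to 10.8), with 638, 325 and 54 neutrophils in the libraries. Neutrophils were thus also fewer in the CCl4 library, and the interval of its basophil to neutrophil ratio overlapped that of the control.

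**Figure D1:**
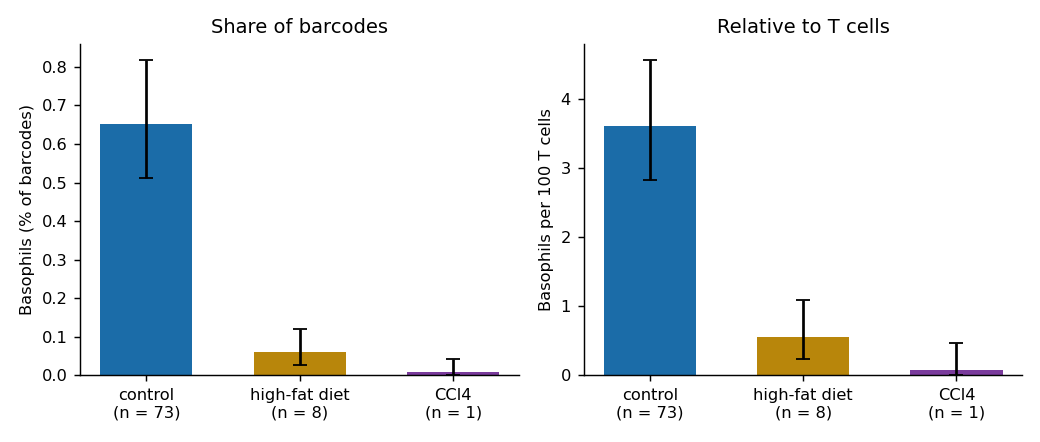
Basophils in the 3 libraries as a percentage of barcodes (left) and for each 100 T cells of the same library (right). Bars are the values of single libraries pooled from 2 mice each and whiskers are exact 95% counting intervals; the control bar, at 0.651% and 3.61, stands above both others.

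The control library had more UMIs per barcode, and the rule asks for a set number of UMIs. Thinning the control UMIs to 79.5% of their number, the ratio of the median depths, would leave an expected 63.3 of its 73 basophils (0.565% of barcodes) at the depth of the high-fat diet library, and thinning to 73.9% would leave 60.0 (0.535%) at that of the CCl4 library. The control share stayed above the intervals of the other libraries at either depth. The median UMIs of the basophils themselves differed more, at 3289 in control, 2120.5 in high-fat diet and 2067 in CCl4. Thinning to those depths was not run. With 1 pooled library for each condition, diet or toxin, cell recovery and the 2 animals cannot be told apart.

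All further comparisons within a library used the 73 control basophils. Genes were compared when the higher of the 2 levels would give 20 UMIs in the basophils, leaving out mitochondrial and ribosomal protein genes and those of the rules, and a gene counted as higher or lower when the ratio of (CPM + 50) was at least 2 or at most 0.5. Because a gene entered through whichever group was higher, the counts describe the contrast and test nothing. Against all other 11134 control barcodes, 306 of 2987 genes were higher (10.2%) and 255 lower (8.54%). Against 638 neutrophils, 220 of 2880 were higher (7.64%) and 155 lower (5.38%). Against 2020 T cells, 225 of 3077 were higher (7.31%) and 196 lower (6.37%). Neutrophils had a median of 2684 UMIs and T cells of 2517, somewhat less than the basophils.

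Among the mediator genes listed, chemokines had the most UMIs. Ccl4 had more UMIs than any other gene of the control basophils, and only Tmsb4x and Malat1 stood between it and Ccl3. The 10 chemokine genes listed gave 4.32% of all UMIs of the control basophils and 0.258% of those of T cells. Ccl5, a chemokine of cytotoxic lymphocytes, was not in that list; it stood at 319.1 CPM in control basophils and 7845 CPM in T cells, a ratio of 0.0407 (0.0332 to 0.0494). Ccl4, a CC chemokine that draws leukocytes, was present in all 73 control basophils (and in 44.3% of T cells) at 27028.5 CPM (26461.5 to 27604.5; 1 to 538 UMIs per cell, median 105), and was 36.2 times as abundant as in all other barcodes (35.4 to 37.1). Ccl3, a CC chemokine encoded next to Ccl4, was present in 68 at 10676.9 CPM (median 40 UMIs, at most 129), 72.6 times as abundant (69.7 to 75.6). Both were also found in other leukocytes, at 1979.6 and 284.5 CPM in T cells and 647.4 and 167.2 CPM in neutrophils. Ccl6 (2111.6 CPM in 55 cells) and Ccl9 (969.8 CPM in 61 cells), both CC chemokines of myeloid cells, followed. Cxcl2, a neutrophil chemoattractant, was in 36 basophils at 2286.8 CPM and was higher in the neutrophils themselves (3302 CPM). Ccl7, Ccl12 and Ccl24 were not detected in the control basophils. Of the 10 chemokine genes listed, which leave out Ccl5, 6 could be compared; 5 were higher and none lower than in all other barcodes, with a median ratio of 13.1, against 10.2% higher, 8.54% lower and a median ratio of 1.03 for all genes compared.

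Among the cytokine genes listed, Il6 had the most UMIs in the control basophils. Il6, a driver of the hepatic acute phase response, was present in 65 of 73 control basophils (89.0%, against 0.248% of T cells; median 8 UMIs, at most 41) at 2324.3 CPM (2160.2 to 2497.6). It was 287 times as abundant as in all other barcodes (254 to 325), 213.5 times as in neutrophils and 2473.9 times as in T cells, where 6 UMIs were counted. Basophils held 743 of the Il6 UMIs of the control library and the other 11134 barcodes together 398. The levels of other growth factors were also high: Osm, an IL-6 family cytokine, was in 67 basophils at 1520.4 CPM, Csf1, the macrophage growth factor, in 55 at 1260.7 CPM, and Hgf, the hepatocyte growth factor, in 50 at 503.7 CPM. In T cells of the same library these 3 genes stood at 14.6, 11.3 and 1.25 CPM. Without possible doublets, the cells that also met the neutrophil or T cell rule or held over 2 times the median UMIs, 57 control basophils remained and Osm stood at 2340.9 CPM.

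The type 2 cytokines were present in fewer cells. Il4, which drives type 2 responses, was detected in 35 control basophils (47.9%) with 0 to 37 UMIs per cell, and the 5 cells with the most UMIs held 54.7% of its 128 UMIs. Il13, its neighbour on chromosome 11, was in 23 cells at 147 CPM (108 to 195.5), against 0.157 CPM in T cells, and its 47 UMIs stood against 5 in all other control barcodes, a ratio of 1447 (578 to 4662). Without possible doublets Il4 stood at 610.7 CPM and Il13 at 243.1 CPM. Both were found together in 17 cells and neither in 32. Il5, Il9 and Csf2 had no UMI in the 319663 UMIs of the control basophils. Areg, a growth factor of the EGF family, had 47 UMIs in only 5 cells. Il1b stood at 1439 CPM in basophils and 1882 CPM in neutrophils. Of the 16 cytokine genes 11 could be compared, 9 of them higher and none lower than in all other barcodes (median ratio 7.16), against 10.2% higher and 8.54% lower of all genes compared (median ratio 1.03).

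**Figure D2:**
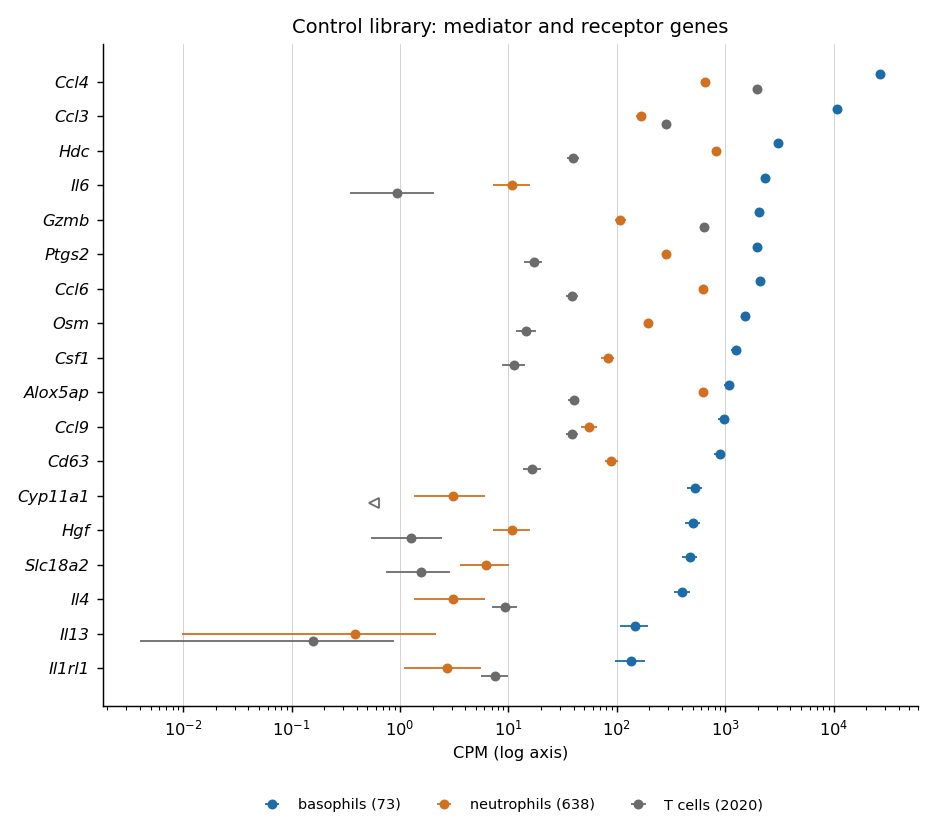
Levels of 18 mediator and receptor genes in control basophils, neutrophils and T cells, in CPM on a log axis. Points are pooled levels with exact 95% counting intervals, and the open triangle marks the upper limit of a gene with no UMI; basophils have the highest level of all 18 genes shown, from 134.5 CPM for Il1rl1 to 27028.5 CPM for Ccl4.

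Of the genes of histamine handling, Hdc was in nearly all control basophils and Slc18a2 in fewer. Hdc, the enzyme that makes histamine, was in 72 of 73 control basophils at 3040.7 CPM (2852.5 to 3238.0; median 13 UMIs). It was 77.4 times as abundant as in T cells but 3.71 times as in neutrophils, of which 90.9% held a UMI of it, so it was not particular to basophils. Slc18a2, which loads histamine into granules, was in 53 basophils at 472.4 CPM, against 6.22 CPM in neutrophils and 1.57 CPM in T cells. The lipid mediator genes split. Ptgs2, the inducible cyclooxygenase, was in 55 cells at 1958.3 CPM, and Alox5ap, the activating protein of 5-lipoxygenase, in 68 at 1094.9 CPM. Alox5 itself stood at 181.4 CPM, while Ltc4s had 1 UMI and Hpgds, Ptges and Tbxas1 none. Cyp11a1, the enzyme that opens steroid synthesis, was in 60 basophils (82.2%) at 525.6 CPM, with no UMI in the 2020 T cells and 3.11 CPM in neutrophils.

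Granule genes showed both shared and separate members. Srgn, the proteoglycan core of granules, was in all 73 control basophils at 3816.5 CPM, against 1645 CPM in neutrophils and 794.1 CPM in T cells. Gzmb, a protease best known from cytotoxic lymphocytes, was in 48 at 2067.8 CPM, 3.26 times the 634 CPM of T cells. Cd63, whose surface display marks basophil degranulation, was in 63 at 894.7 CPM, 10.0 times as abundant as in neutrophils. Of the 16 granule and exocytosis genes 11 could be compared, 7 of them higher and none lower than in all other barcodes (median ratio 4.80), against 10.2% higher and 8.54% lower of all genes compared (median ratio 1.03).

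Among the receptor and signalling genes listed outside the rule, Fcer1g and Cxcr4 had the most UMIs. Fcer1g, the signalling chain shared by Fc receptors, was in 72 of 73 control basophils at 1611.1 CPM, against 1184 CPM in neutrophils and 367.8 CPM in T cells. Its partners Lyn, Syk and Btk stood at 97.0, 81.3 and 81.3 CPM, and of the 15 genes of Fc receptor signalling 11 could be compared, with 4 higher and none lower than in all other barcodes (median ratio 1.66, against 1.03 for all genes, of which 10.2% were higher). Against neutrophils only 1 of 11 was higher, near the 7.64% of all genes. Csf2rb, the shared signalling chain of the IL-3, IL-5 and GM-CSF receptors, was in 43 cells at 294.1 CPM; its near copy Csf2rb2 stood at 106.4 CPM, and reads of the pair could be divided between them. Il3ra, the chain that binds IL-3, had 18 UMIs in 16 cells. Il1rl1, the IL-33 receptor, was in 23 cells at 134.5 CPM (97.3 to 181.2), and Il18rap, a chain of the IL-18 receptor, in 43 at 240.9 CPM. Of the 18 cytokine receptor genes 9 could be compared with T cells, 4 of them higher (7.31% of all genes) and 3 lower (6.37%). Against all other barcodes 5 of 8 were higher and none lower, and against neutrophils 6 of 10 and none. Cxcr4, the receptor of the chemokine CXCL12, led the 18 chemoattractant and mediator receptor genes at 857.2 CPM in 63 cells. C5ar1 and C3ar1, receptors of the complement fragments C5a and C3a, were in 34 and 17 cells. Ptgdr2, the prostaglandin D2 receptor CRTH2, had no UMI.

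Detection depended on depth. After thinning each cell to 1000 UMIs, the expected share with a UMI fell from 47.9% to 25.6% for Il4, from 31.5% to 13.4% for Il1rl1 and from 68.5% to 36.7% for Hgf. The shares in T cells, whose values stand for RNA free in the suspension or for true low levels, were 0.922%, 0.459% and 0.0879% after the same thinning. All 3 shares stayed above those of T cells.

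On the surface, Cd9 was in 71 control basophils at 1044.9 CPM, and Cd69, an early activation marker, in 57 at 1389 CPM. Ifitm1, an interferon-induced membrane protein, was in 67 at 1958.3 CPM, 57.6 times as abundant as in T cells and 2.95 times as in neutrophils. Itga2b, an integrin chain best known from megakaryocytes and platelets, was in 22 at 112.6 CPM, while Ppbp and Gp1bb, platelet genes, had no UMI and Pf4 had 2. Itga2, the integrin chain detected by the antibody DX5, was in 16 cells at 53.2 CPM, and Enpp3 had 1 UMI. The 20 adhesion and surface genes listed ran both ways. Against all other barcodes 7 of 13 compared were higher and none lower (10.2% and 8.54% of all genes). Against neutrophils 6 of 14 were higher and 3 lower (7.64% and 5.38%), and against T cells 5 of 15 and 4 (7.31% and 6.37%). Of the inhibitory and paired receptor genes 11 were compared with neutrophils, 1 higher and 4 lower.

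Of 20 transcription factor genes outside the rule 13 could be compared. Against all other barcodes 5 were higher (10.2% of all genes compared were) and none lower, with a median ratio of 1.61. Against neutrophils 2 were higher (7.64% of all genes) and none lower, a share that rests on few genes. Against T cells 6 were higher (7.31% of all genes) and 2, Runx3 and Bhlhe40, lower. Cebpb stood at 2612.1 CPM in basophils and 2729 CPM in neutrophils, and Runx1 at 516.2 CPM in basophils, 90.6 CPM in neutrophils and 168.6 CPM in T cells. Gata1, which also acts in erythroid and mast cells, had 3 UMIs in 3 cells. Immediate early genes were high as well, and 10 of 12 were higher than in all other barcodes (median ratio 2.54) and 5 than in T cells. Nfkbia, an NF-kappa-B target and inhibitor, was in all 73 at 3707 CPM, against 479.5 CPM in T cells.

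The 15 genes with the highest ratio over all other control barcodes were Ccl3, Il6, Ccl4, Hdc, Ptgs2, Acod1, Ier3, Csf1, Osm, Ccl6, Ifitm1, Nlrp3, Plek, Lilr4b and Cd63. Acod1, which makes itaconate, stood at 1689.3 CPM in 61 cells, 53.4 times as abundant as elsewhere (48.3 to 58.9), and Nlrp3, an inflammasome sensor, at 804 CPM in 62 cells, 39.1 times. Lilr4b has a near-identical neighbour, Lilrb4a, so its counts are uncertain. The 8 genes with the lowest ratio were Camp, Igha, Ngp, Hbb-bt, Ccl5, Gzma, Jchain and Hamp, which belong to neutrophils, plasma cells, erythroid cells, cytotoxic lymphocytes and hepatocytes. Igha had no UMI in the control basophils, against 271.8 CPM in the other barcodes.

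Markers of other cell types ran both below and above their levels in T cells. Of the 73 control basophils, 4 also met the neutrophil rule and 2 the T cell rule. The 11 neutrophil genes gave 989 UMIs (3094 CPM), of which 690 lay in those 4 cells. In the other 69 basophils they gave 990.2 CPM (881.1 to 1109), with a median of 2 UMIs per cell, against 3191 CPM in T cells and 86712.3 CPM in neutrophils. The 6 T cell genes gave 59.4 CPM, with Trbc1 the most abundant and Cd3d at 0, against 2686 CPM in T cells. The 11 monocyte and macrophage genes gave 256.5 CPM, most of it Lyz2 (46 UMIs), and Clec4f and Vsig4, which mark Kupffer cells, were at 0. The 12 hepatocyte genes made up 3.94% of the UMIs of control basophils and 4.74% of those of T cells, with Alb the most abundant. In the high-fat diet library they made up 9.72% in basophils and 9.67% in T cells, and in the CCl4 library 11.8% and 13.5%. In control the level in basophils (39454 CPM; 38768 to 40149) lay below that of T cells (47382 CPM) and of neutrophils (74775 CPM) beyond counting error. The 6 endothelial genes gave 378.5 CPM in control basophils, against 126.2 CPM in T cells and 49.4 CPM in neutrophils. Ptprb was the most abundant, with 54 UMIs in 4 cells, Pecam1, which leukocytes also express, had 38 in 23 cells, and Stab2 and Clec4g, which mark liver sinusoidal endothelium, were at 0. The 7 myeloid progenitor genes gave 1041.7 CPM, against 175.7 CPM in T cells and 517.9 CPM in neutrophils, and 124 of their 333 UMIs were Ctsg. The part of such cells in the results was not tested.

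Mast cells were checked most closely, since Cpa3, Fcer1a, Ms4a2, Gata2 and Hdc are theirs too. Of the 9 mast cell genes, 7 had no UMI in the control basophils, among them Mcpt4, Tpsb2 and Tpsab1, while Kit had 15 UMIs and Cma1 5. In all, 4 of the 82 cells held 2 or more mast cell UMIs, 2 in the control library and 2 in the high-fat diet library, and 78 did not. One of the 2 in the high-fat diet library had 21 Cma1, 7 Tpsb2, 4 Mcpt4 and 4 Kit UMIs and no UMI of Mcpt8, Prss34, Ccl3 or Ccl4. The other had 1 Cma1, 1 Kit and 8 Cpa3 UMIs, 6 of Ccl4 and none of Mcpt8 or Prss34. One of the control cells had 5 Cma1, 5 Kit, 19 Cpa3 and 64 Gzmb UMIs beside 4 of Mcpt8 and 5 of Ccl4. The second had 8 Kit, 38 Gzmb and 1 Ccl4 UMIs and none of Mcpt8 or Prss34. None of the 4 cells held a Ccl3 or Il6 UMI, against a median of 40 Ccl3 UMIs over the control basophils. By its mast cell genes the first goes against the basophil label, and the other 3 are doubtful. Without the 4 cells the shares were 0.634% (71), 0.0462% (6) and 0.00784% (1).

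The control basophils were not alike in Prss34, a rule gene. Prss34 had no UMI in 47 cells, 1 to 5 in 7 cells and 13 to 255 in 19 cells (median 105), with no cell between 5 and 13. Mcpt8 ran with it: all 19 Prss34-high cells held Mcpt8, at 6393 CPM, against 21 of the 47 Prss34-negative cells, at 418.5 CPM. The division was drawn after these values were seen, so what follows is a description of 19 against 47 cells of 1 library. Of the other rule genes, Cpa3 (1358 against 516.6 CPM) and Fcer1a (487 against 104.6 CPM) had higher levels in the Prss34-high cells. Cd200r3 had a lower one (274.4 against 464.3 CPM, a ratio of 0.591 with an interval of 0.391 to 0.883). Gata2 (1749 against 1681 CPM) and Ms4a2 (343 against 333.5 CPM) had overlapping intervals. As values of rule genes, these describe the choice.

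**Figure D3:**
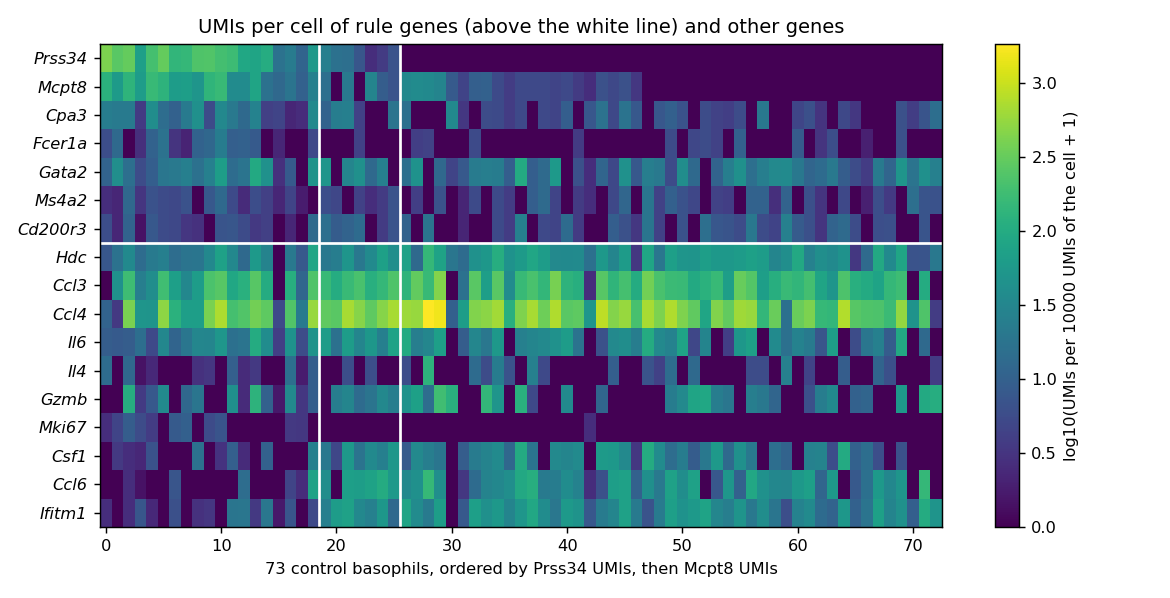
UMIs of the 7 rule genes (above the horizontal white line) and 10 other genes in each of the 73 control basophils, as log10 of (UMIs per 10000 UMIs of the cell + 1). Cells are ordered by Prss34, then Mcpt8; vertical white lines part the 19 cells with 13 or more Prss34 UMIs, the 7 with 1 to 5 and the 47 with none, and Ccl6, Csf1 and Ifitm1 are darker in the first group.

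Outside the rule genes, 120 of 1338 genes were higher in the Prss34-high cells (8.97%) and 131 lower (9.79%). Without members over 2 times the median UMIs these counts were 41 and 63. The number of genes compared under that setting is not given, so these counts cannot be read as shares. Genes of the cell cycle stood out. The 12 cell cycle genes gave 2112.8 CPM in the Prss34-high cells (1883.4 to 2362.4; 308 UMIs) and 215.8 CPM in the Prss34-negative cells (148.6 to 303.1; 33 UMIs), and 13 of 19 against 7 of 47 cells held 2 or more of their UMIs. Mki67, a marker of cycling cells, was in 11 of 19 against 1 of 47, and Top2a, a DNA topoisomerase of dividing cells, in 13 of 19 against 3 of 47. All 6 cell cycle genes that could be compared were higher (median ratio 5.87, against 1.06 for all genes compared). These 6 entered the comparison through their level in the Prss34-high cells, since the negative cells held few UMIs of the list. Their count therefore describes the contrast and tests nothing. Of the 15 genes with the highest ratio, Pclaf, Top2a, Mki67, Cks1b, Ube2c, Rrm2, Birc5 and Smc4 act in DNA replication or division, and Stmn1, Hmgb2, H2ax, H2az1 and Hmgn2 encode a tubulin-binding protein and chromatin proteins.

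Other leading genes of the Prss34-high cells encode a granule protease and a secretory pathway protein. Ctsg, a granule protease typical of myeloid precursors, led the list, with 124 UMIs in 15 of the 19 Prss34-high cells and none in the 47 negative cells, at least 43.4 times as abundant when a floor of 3 counts over the negative cells stands for their 0, with an exact counting interval of the ratio that starts at 34.7. Sdf2l1, a protein of the endoplasmic reticulum, was 11.0 times as abundant (5.34 to 26.3). Of the myeloid progenitor genes, Ms4a3 was in 9 of 19 against 2 of 47 cells and Mpo in 7 of 19 against 1 of 47, while Kit (1 and 3 cells) and Cd34 (2 and 3 cells) were sparse in both.

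Mediator genes past the fold were lower in the Prss34-high cells, apart from Alox5. Ccl6 stood at 3283 CPM in the Prss34-negative and 274.4 CPM in the Prss34-high cells, a ratio of high to negative of 0.0836 (0.0590 to 0.115). Csf1 stood at 2034 against 226.4 CPM (ratio 0.111; 0.0753 to 0.160) and Ifitm1 at 3172 against 404.7 CPM (0.128; 0.0957 to 0.168). Ccl4 was present in every cell of both groups but at 36216.0 CPM in the negative and 15303.8 CPM in the high cells. Of the chemokine genes 4 of 6 compared were lower in the Prss34-high cells and none higher, of the cytokine genes 3 of 9 were lower and none higher, of the histamine and lipid mediator genes 3 of 5 were lower and 1 higher, and of the immediate early genes 5 of 12 were lower and none higher, where 9.79% of all genes compared were lower and 8.97% higher. The gene that was higher was Alox5, 5-lipoxygenase, at 308.7 CPM in the high and 71.9 CPM in the negative cells (ratio 4.29; 2.19 to 9.20). Hgf stood at 514.5 and 405.5 CPM, with an interval that includes no change (1.27; 0.894 to 1.81). Il6 differed little in comparison, at 1893 CPM in the high and 2452 CPM in the negative cells, and was in all 19 of the former.

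**Figure D4:**
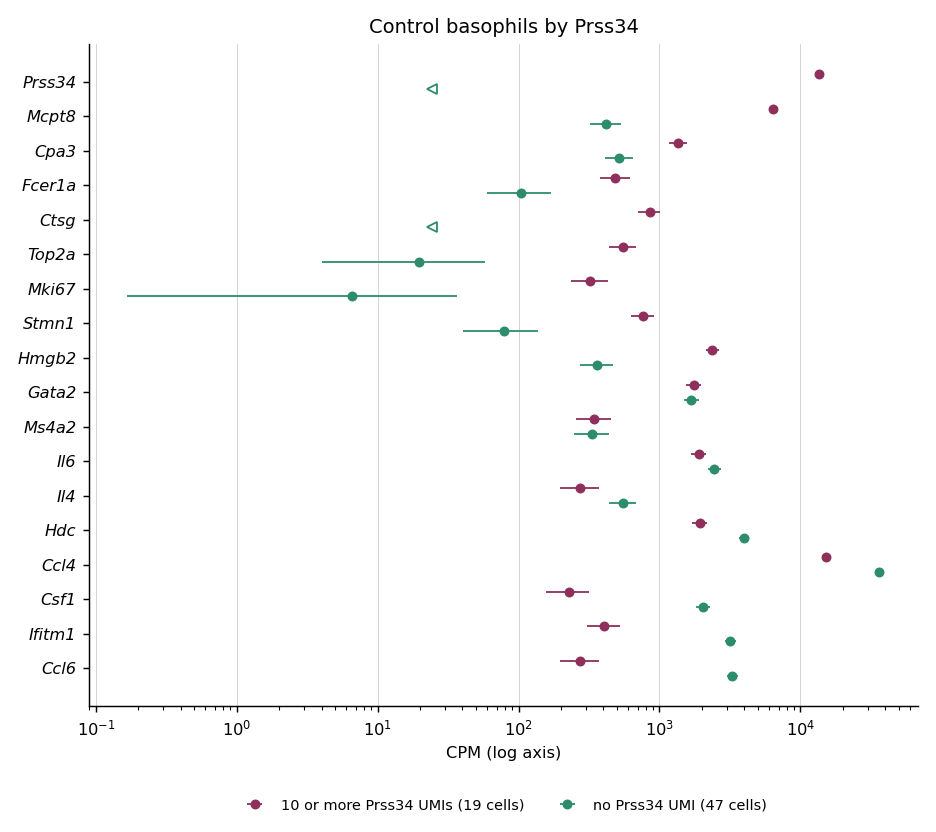
Levels of 18 genes in the 19 control basophils with 10 or more Prss34 UMIs and the 47 with none, in CPM on a log axis with exact 95% counting intervals. Open triangles mark the upper limit of genes with no UMI in the negative cells; Ctsg and cell cycle genes lie to the right in the Prss34-high cells, and Ccl4, Csf1, Ifitm1 and Ccl6 to the left.

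Depth moved with this division. Prss34-high cells had a median of 6073 UMIs and Prss34-negative cells of 2444, and 8 of the 10 control basophils with over 2 times the median UMIs were Prss34-high; the part of cell size or of doublets was not tested. Without the cells over that size, 11 high and 45 negative cells remained, and the cell cycle genes stood at 1622.6 against 223.9 CPM, a ratio of 7.25 (4.73 to 11.4). S100a8, S100a9 and Retnlg were among the genes with the lowest ratio, but 3 of the negative cells met the neutrophil rule; without these, the other cells that met a second rule or held mast cell UMIs, and the largest cell, S100a8 fell to 5 UMIs in 41 negative cells and 2 in 17 high cells. Ccl6 (ratio 0.0748), Csf1 (0.121) and Ifitm1 (0.0813) kept their direction there.

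In the 8 basophils of the high-fat diet library, the levels of several mediators depended on the 2 cells with mast cell UMIs. Ccl4 was in 7 of 8 cells at 25811.2 CPM (23493.7 to 28295.5), a ratio to control of 0.955 (0.867 to 1.05). In the individual cells it ran from 0 to 128 UMIs, and the cell at 0 was the one with 21 Cma1 UMIs. Without the members with mast cell UMIs in both libraries, 6 cells stood at 33889.4 CPM and 71 control cells at 27797.3 CPM, and the ratio was 1.22 (1.11 to 1.34), above counting error. Ccl3 was in 6 of 8 cells at 8282.3 CPM, below the control (ratio 0.776; 0.653 to 0.916), and without those members its ratio was 1.00 (0.844 to 1.18). Hdc was in all 8 cells, with 1 to 9 UMIs, at 2042.2 CPM (ratio 0.672; 0.468 to 0.936), and without them its ratio was 0.761 (0.514 to 1.09). The ratios of Ccl4, Ccl3 and Hdc to control thus lay on different sides of counting error with and without these cells. Leaving out possible doublets removed none of the 8 cells but raised control levels. Control Ccl4 then stood at 38438.3 CPM, above the level of the 8 cells and of the 6. Control Ccl3 (14435.6 CPM), Hdc (4178.6 CPM), Ptgs2 (2651.9 CPM) and Osm (2340.9 CPM) also stood above the 8 cells. No ratio intervals were made for that setting. Gzmb (ratio 1.18; 0.846 to 1.61), Ptgs2 (0.898; 0.605 to 1.29), Osm (0.895; 0.568 to 1.35) and Ccl6 (0.913; 0.627 to 1.29) had intervals that include no change, with all 8 cells and with 6, and that also allow differences of the size of their bounds. Ccl2, a monocyte chemoattractant, had 7 UMIs, all in the cell with 21 Cma1 UMIs.

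**Figure D5:**
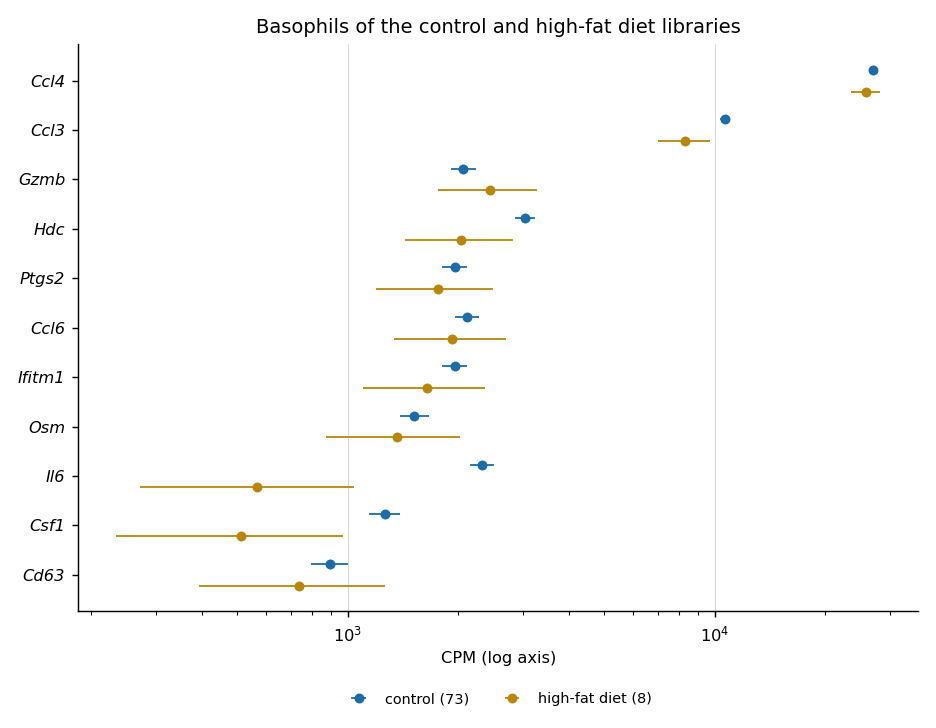
Levels of 11 genes outside the rule in the 73 control basophils and the 8 basophils of the high-fat diet library, in CPM on a log axis with exact 95% counting intervals. All 8 cells are included; intervals lie apart for Ccl3, Hdc, Il6 and Csf1 and overlap for the other genes shown.

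Some genes were lower in those 8 cells beyond counting error. Il6 had 10 UMIs in 5 of 8 cells, at 567.3 CPM, a ratio of 0.244 (0.117 to 0.451), and Csf1 had 9 UMIs (ratio 0.405; 0.184 to 0.777). Cebpb, at 907.6 CPM, had a ratio of 0.348 (0.198 to 0.568), and Cxcr4, with 4 UMIs, one of 0.265 (0.0716 to 0.686). Without the members with mast cell UMIs these ratios were 0.316 for Il6 (0.151 to 0.584), 0.465 for Csf1 (0.1995 to 0.926), 0.451 for Cebpb (0.257 to 0.737) and 0.345 for Cxcr4 (0.0933 to 0.893), all still below counting error. Il4, the marker that checked the label in control, had 1 UMI in the 8 cells (ratio 0.142; 0.00356 to 0.804), and its interval included no change without those members (0.185; 0.00464 to 1.05). Hgf also had 1 UMI (ratio 0.113; 0.00283 to 0.637), and Cxcl2 had 16, of which 14 were in 1 cell (0.397; 0.226 to 0.649); both stayed lower without those members. Ccl9 (0.468; 0.2003 to 0.934) and Il1b (0.552; 0.299 to 0.936) were lower with all 8 cells, while without those members their ratios of 0.531 (0.212 to 1.11) and 0.714 (0.387 to 1.21) were not beyond counting error. Prss34 had 31 UMIs in 1 cell, 9 in another and none in the other 6. The 12 cell cycle genes had 1 UMI in all (56.7 CPM; 1.44 to 316), against 342 in the control basophils (1070 CPM; 959.5 to 1190), of which 308 lay in the 19 Prss34-high cells. With 8 cells of 2 pooled mice these are values of 1 library.

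Genes were compared between the control and high-fat diet libraries when their UMIs summed over both groups of basophils reached 20. Control held 319663 of these UMIs and high-fat diet 17628. By the ratio of (CPM + 50), 263 of 2588 genes were at least 2-fold higher in the high-fat diet basophils (10.2%). Another 798 were at least 2-fold lower (30.8%). Of the 798 lower genes 619 had no UMI in the 8 cells, where 1 UMI is worth 56.7 CPM. Any gene that entered with no UMI there counted as lower by this rule. The counts thus describe the contrast and test nothing. When 50 UMIs were required, 111 of 959 genes were higher (11.6%) and 244 lower (25.4%), and without possible doublets 376 genes were lower. The genes with the highest ratios were Cma1, whose 22 UMIs lay in 2 cells (21 in one), and the hepatocyte genes Acaa1b, Scd1, Cyp4a14 and Gsta3. Scd1, which makes monounsaturated fatty acids, stood at 9020 against 750.8 CPM, 12.0 times as abundant (9.77 to 14.7), and in T cells the same ratio was 11.7 (11.4 to 12.1). The lowest were Mt2, S100a9, Mt1, S100a8 and Saa2. Of the control UMIs of S100a8 and S100a9, 278 of 285 and 289 of 298 lay in the 4 basophils that also met the neutrophil rule. Mt1, a metallothionein, had a ratio of 0.0365 in basophils and 0.0254 in T cells, and Saa2, an acute phase protein of hepatocytes, 0.0591 and 0.0363. The ratio of Cma1 in T cells was 0.155 (0.00360 to 1.07). Scd1, Mt1 and Saa2 differed in the same direction in both cell types. Of the genes past the fold in basophils, 99 of the 263 higher and 46 of the 798 lower were past it in T cells. In all other barcodes 34 and 40 of them were. The share of all genes compared that was past the fold in those groups is not given. Most of the lower genes had no UMI in the 8 cells, so these counts cannot be read as differences particular to basophils.

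The basophil of the CCl4 library held 1 Mcpt8, 1 Cpa3, 2 Cd200r3 and 2 Gata2 UMIs. Beside these it had 78 Ccl4, 22 Ccl3, 3 Il6, 3 Osm, 2 Hdc and 1 Cyp11a1 UMIs, and no mast cell UMI. It also held 130 Alb UMIs. With 1 cell, its levels were not compared with those of the control.

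Of 7 genes of the study's subject, 4 were detected in control basophils, with 27 UMIs together (84.5 CPM; 55.7 to 122.9). The same 7 genes stood at 68.3 CPM in T cells and 388.8 CPM in neutrophils. Bdnf, which encodes brain-derived neurotrophic factor, Ntrk2, its receptor, and Tlr4, the receptor for lipopolysaccharide, had no UMI in the 319663 UMIs of control basophils, nor in those of the other libraries. For each, 3 counts of that total set the limit, and levels below it were not detectable at this depth. Cd14, the co-receptor of Tlr4, had 14 UMIs in 9 control basophils (43.8 CPM), against 309.1 CPM in neutrophils. Ly96, Myd88 and Ticam1 were also detected in control basophils.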

How the data were processed

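The deposited matrices hold whole UMI counts for each gene and barcode, made by the authors with Cell Ranger 7.2.0 per the file headers. The study's methods name mm10 and the submitters' processing notes name GRCm39, so no coordinates were taken from the matrices; 94.1% of their 55357 gene IDs matched GENCODE M21. Each library was pooled from 2 mice. The members and gene lists were chosen with earlier results of these data known.

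UMIs were summed over the cells of a group and divided by its total (CPM), with exact Poisson intervals at the 95% level, exact conditional intervals for ratios and Clopper-Pearson intervals for shares, in Python 3.11.15 with scipy 1.17.1. The planned count model needed at least 2 libraries with 10 or more basophils. Only the control had these, so no test was made, and the genes named for each comparison are the 15 highest and 8 lowest ratios of (CPM + 50), or the 5 highest and 5 lowest between libraries, beside those of the lists, leaving out predicted, mitochondrial and ribosomal protein genes. Doublets were not called; cells that met another rule or held over 2 times the median UMIs were left out as an alternative. Thinned shares are exact expected values, and the calculations were tested on simulated data. A floor of 3 counts stands for a count of 0. Per-sample depth is given with the results.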

Additional observations from a re-analysis of the deposited data

How the results depend on the processing

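Basophils remained rarest in the CCl4 library and most frequent in the control library under every setting tried for the rule. The control share moved to 0.428% with at least 10 UMIs in the 7 genes, 0.464% with 4 or more genes and 0.509% without possible doublets. The high-fat diet share moved to 0.0231% with at least 10 UMIs, and the CCl4 share to 0% both with at least 10 UMIs and with at most 10% mitochondrial UMIs. Between the high-fat diet and control basophils, the 263 higher and 798 lower genes became 111 and 244 where 50 UMIs were required, and the lower ones 376 without possible doublets. Without members over 2 times the median UMIs, the 120 higher and 131 lower genes of the Prss34-high cells became 41 and 63. This setting was chosen after seeing the data, as were those on mast cell UMIs and on thinned control depth. So were the setting without the largest cell and cells that met another rule, and CPM outside the hepatocyte list within the control library. The other 58 values of this kind stayed within counting error or 1.5 times. Levels of single mediators in control basophils rose without possible doublets, Ccl4 to 38438.3 CPM, and by over 1.5 times for Il4, Il13 and Osm. Leaving out a library, dropping the library block and the other count model were not run, since no test was made. Settings for the gene levels of the CCl4 basophil were not run either, since the levels of 1 cell were not compared. No paired analysis was possible because each condition had 1 library. Depth limits what 8 cells can show to levels above 56.7 CPM for each UMI.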

Other observations

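A few control basophils stood apart from the rest by single genes. One held 53 UMIs of Prg2, the eosinophil major basic protein, and the other 72 held none; it had 1 Mcpt8, 4 Cpa3, 1 Ms4a2 and 1 Gata2 UMIs, 30 Ccl4 UMIs and no Il6 UMI. The 8 eosinophil genes gave 89 UMIs in the control basophils, 82 of them in this same cell, and only this cell held 2 or more. By its eosinophil genes it goes against the basophil label, and it was kept among the Prss34-negative cells. Another had 20.9% mitochondrial UMIs beside 43 Ccl3 and 24 Osm UMIs. The 5 erythroid genes gave 520 UMIs in control basophils, 475 of them in 1 cell, at a level (1627 CPM) below that of T cells (3539 CPM). The 9 dendritic cell genes gave 242 UMIs, 100 of them in 1 cell, with H2-Aa the most abundant and Cd209a at 0.

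The 7 basophils with 1 to 5 Prss34 UMIs had a median of 2561 UMIs, close to that of the Prss34-negative cells, and 1 UMI of the 12 cell cycle genes in all (47.7 CPM; 1.21 to 266).

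Among receptors with few UMIs, Adora2b, an adenosine receptor, had 26 UMIs in 18 control basophils (81.3 CPM) against 0.778 CPM in neutrophils and 0.470 CPM in T cells, and Ptger3, a prostaglandin E2 receptor, had 15 UMIs in 12 (46.9 CPM) against 0.778 and 0.157 CPM. Grm6, a glutamate receptor, had 18 UMIs in 14 cells and none in neutrophils. Alox15, a lipoxygenase, had 19 UMIs in 16 cells and none in neutrophils or T cells.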
